A study of Mus musculus with 8 samples.

Results

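The genes described here are 10 genes that mark the primitive endoderm and its basement membrane: the transcription factors Gata4, Gata6, Sox17 and Foxa2, the endocytic adaptor Dab2, and the matrix genes Sparc, Col4a1, Col4a2, Lama1 and Lamb1. They were chosen by gene symbol, and all 10 were found among the 13558 transcripts of the processed table. The study asked what the loss of Trim71, an RNA-binding TRIM-NHL protein, does to the transcriptome of mouse embryonic stem (mES) cells. mRNA was sequenced in 4 libraries of KO cells (labelled Trim-/-) and 4 of WT cells (labelled Trimfl/fl), all male, of strain C57BL/6 and kept in serum with LIF. The WT cells were not genetically wild type, since they carried the floxed Trim71 allele and, per the methods, a tamoxifen-inducible Cre at the Rosa26 locus. KO cells came from the same lines after 500 nM 4-hydroxytamoxifen (4-OHT) for 2 days and at least 7 further days of culture, and only exon 4 of Trim71 was removed. Dose and times are those of the labels, and the methods of the study give a lower dose and a shorter further culture. All cells were sorted for the surface antigen SSEA-1, a marker of undifferentiated mES cells, before lysis. The 8 libraries came from a pair of clones and carried a day label whose meaning is not given. Clone E3 gave KO replicates 1 to 3 (days 2, 3 and 4) and WT replicates 2 and 3 (days 3 and 4), and clone 1 gave KO replicate 4 (day 5) and WT replicates 1 and 4 (days 1 and 5). The p-values therefore measure the spread between libraries of these clones.

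The primitive endoderm is the second lineage that the inner cell mass of the blastocyst produces, next to the epiblast from which mES cells are derived. FGF4 from epiblast precursors acts through FGF receptors and ERK to favour it, and Gata6, Sox17, Gata4 and Foxa2 act in an ordered cascade of transcription factors as it forms. Its cells sort to the surface of the inner cell mass with the help of Dab2, then lay down a basement membrane of laminin and type IV collagen, and their parietal descendants make Reichert's membrane, a very thick sheet of the same proteins. Cultured mES cells throw off such cells spontaneously, so these genes are a common readout of differentiation in mES cell cultures.

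Before the members are described, the quality of the libraries is given. The table holds normalised read counts from which the authors had subtracted a clone effect, with values under 1 set to 1. That subtraction was undone exactly for 13486 transcripts (99.5%), all 10 members among them, which gave whole reads and normalised counts as they stood before it. Recovered reads per library ran from 6700778 (WT replicate 2) to 24911158 (WT replicate 3). Trim71 had a deposited value of 568 ± 249 in KO and 2523 ± 367 in WT (mean ± SD, n = 4 each), a log2 fold change of -2.39 ± 0.35 (SE). Its KO range (247 to 793) lay below its WT range (1988 to 2782), which goes with the labels, and the residual signal was counted over exons that the deletion leaves in place.

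The sequences around the start sites of 2 sets of members are shown first, as background. The results below come from read counts and do not use these sequences. Col4a1 and Col4a2 encode the chains that build the common trimer of type IV collagen. They lie head to head on chromosome 8 (mm10; gene models of GENCODE M21 at chr8:11198423-11312826 on the minus strand and chr8:11312805-11449287 on the plus strand). Their annotated start sites are 21 bases apart, so the gene models overlap by 22 bases. The library kit did not keep strand, so strand could not tell the genes apart there, but the reads were longer than this overlap. RefSeq promoter windows (GRCm38.p6, 250 bases before to 50 after the start) were at hand for 6 of the 10 members, in 9 windows. The Col4a1 window (chr8:11312777-11313076, minus strand) and the Col4a2 window (chr8:11312555-11312854, plus strand) share 78 bases, which stand in capitals and are each other's reverse complement.
Col4a1: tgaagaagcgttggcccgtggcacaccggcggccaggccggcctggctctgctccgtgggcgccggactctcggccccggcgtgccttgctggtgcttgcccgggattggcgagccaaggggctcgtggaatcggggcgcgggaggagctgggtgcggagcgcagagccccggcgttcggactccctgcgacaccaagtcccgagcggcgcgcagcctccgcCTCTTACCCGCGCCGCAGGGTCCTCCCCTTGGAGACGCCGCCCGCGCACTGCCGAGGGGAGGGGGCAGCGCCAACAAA
Col4a2: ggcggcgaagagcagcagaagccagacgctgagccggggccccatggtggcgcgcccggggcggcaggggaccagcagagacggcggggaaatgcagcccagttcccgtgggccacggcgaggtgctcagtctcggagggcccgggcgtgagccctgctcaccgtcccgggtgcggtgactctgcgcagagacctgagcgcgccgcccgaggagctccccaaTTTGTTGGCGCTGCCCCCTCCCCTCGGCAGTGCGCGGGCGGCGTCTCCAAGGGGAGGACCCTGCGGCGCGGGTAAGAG
Both windows are rich in G and C, 74.0% and 73.7% of their bases against a median of 52.7% over 32851 windows. Each holds the CCAAT motif (CCAAT or, on the other strand, ATTGG), which 37.4% of all windows hold. Each window begins where transcription of the other gene runs, and only the 78 shared bases are 1 region read in both directions.

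Foxa2 is shown because it was the member whose difference in genotype effect between the clones passed an adjusted test. Of its 3 windows, the one at chr2:148045415-148045714 (minus strand) holds AGATAA, a form of the motif that GATA factors bind, marked in capitals.
Foxa2: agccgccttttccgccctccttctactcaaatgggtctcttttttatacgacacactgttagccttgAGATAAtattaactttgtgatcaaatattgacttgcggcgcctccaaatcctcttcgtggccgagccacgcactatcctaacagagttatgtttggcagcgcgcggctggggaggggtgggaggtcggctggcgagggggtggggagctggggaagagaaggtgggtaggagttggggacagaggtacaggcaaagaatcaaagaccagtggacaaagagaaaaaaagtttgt
The motif AGATAA, or TTATCT on the other strand, was present in 2 of the 9 member windows, this one and a window of Dab2, and in 11.2% of all windows. The same Foxa2 window also holds TTTATA, the reverse complement of TATAAA, and 13.6% of all windows hold one or the other. A match is a run of letters, and whether any factor sat there was not measured. Windows for Gata4, Gata6, Sox17 and Lama1 were not used here.

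The 10 members spanned a wide range of levels. Expressed as normalised read counts per kilobase of exon with the clone correction undone, Sparc, a collagen-binding matricellular protein, was the highest in WT at a mean of 2281 (range over 4 libraries 1940 to 3100). The laminin beta chain gene Lamb1 followed at 428 (383 to 494), and the laminin alpha chain gene Lama1 at 251 (217 to 326). Col4a1 stood at 210 (106 to 440) and Col4a2 at 130 (55.9 to 287). The ranges of Sparc, Lamb1 and Lama1 did not overlap each other, while that of Col4a1 reached those of Lamb1, Lama1 and Col4a2. The transcription factors and Dab2 lay lower, with Gata4 at 23.1 (10.4 to 37.9), Dab2 at 16.0 (8.88 to 30.3) and Gata6 at 3.63 (2.17 to 5.84). Foxa2 at 1.70 (1.06 to 2.76) and Sox17 at 1.52 (0.176 to 2.47) were the lowest. Within the order, the ranges of Gata4 and Dab2 overlapped, as did those of Gata6, Foxa2 and Sox17, whereas no range of the lower 5 reached the range of Col4a2.

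Gata6 and Gata4, the zinc finger factors of the cascade, were both highest in KO replicate 4. With the correction undone, Gata6 stood at 27.3, 14.9, 27.7 and 155 normalised counts in KO replicates 1 to 4, while WT replicates 1 to 4 had 15.1, 14.1, 27.4 and 38.0. KO replicate 4 was over 4 times the next library, which was WT replicate 4, and the other KO libraries lay within the WT range. Gata4 (chr14:63198922-63271692) stood at 50.7, 48.2, 153 and 295 in KO and at 52.8, 40.5, 119 and 148 in WT. In Gata4, both libraries of day 4 in clone E3 also stood well above the other libraries of that clone. In Gata6 they were above KO replicate 1 by little, at 27.7 and 27.4 against 27.3. On the deposited values the log2 fold change of Gata6 was 1.79 ± 0.97 (SE, unadjusted p = 0.106, adjusted p = 0.619) and that of Gata4 1.41 ± 1.25 (unadjusted p = 0.294, adjusted p = 0.731). Neither passed the test, and the deposited values of the groups overlapped, with Gata6 at 44.7 to 125 in KO and 1.00 to 57.2 in WT.

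Sox17 (chr1:4490931-4497354), an HMG box factor that keeps primitive endoderm in its lineage, was counted on few reads. Recovered reads were 9, 6, 9 and 37 in KO replicates 1 to 4. WT replicates 1 to 4 had 1, 3, 25 and 9. This gave 8.77, 5.26, 8.32 and 49.3 normalised counts in KO and 0.838, 5.28, 11.1 and 11.8 in WT. The 37 reads of KO replicate 4 have a 95% Poisson interval of 26.1 to 51.0 and the 9 reads of WT replicate 4, at a similar depth, one of 4.12 to 17.1. Intervals of this kind cover counting error alone. The deposited log2 fold change was 1.34 ± 0.74 (SE, unadjusted p = 0.113, adjusted p = 0.625), and 3 of the 4 KO libraries lay within the WT range.

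Foxa2 (chr2:148042877-148046969), the forkhead factor at the end of the cascade, was the lowest in counts. KO replicates 1 to 4 had 5, 2, 5 and 23 recovered reads and WT replicates 1 to 4 had 3, 2, 8 and 5. As normalised counts these were 4.87, 1.75, 4.62 and 30.7 in KO and 2.51, 3.52, 3.54 and 6.55 in WT. Outside KO replicate 4, the 7 libraries thus carried between 2 and 8 reads, too few to tell their levels apart. The 23 reads of KO replicate 4 have a 95% Poisson interval of 14.6 to 34.5, against 1.62 to 11.7 for the 5 reads of WT replicate 4. The deposited log2 fold change was 1.32 ± 0.67 (SE, unadjusted p = 0.0866, adjusted p = 0.593).

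**Figure D1:**
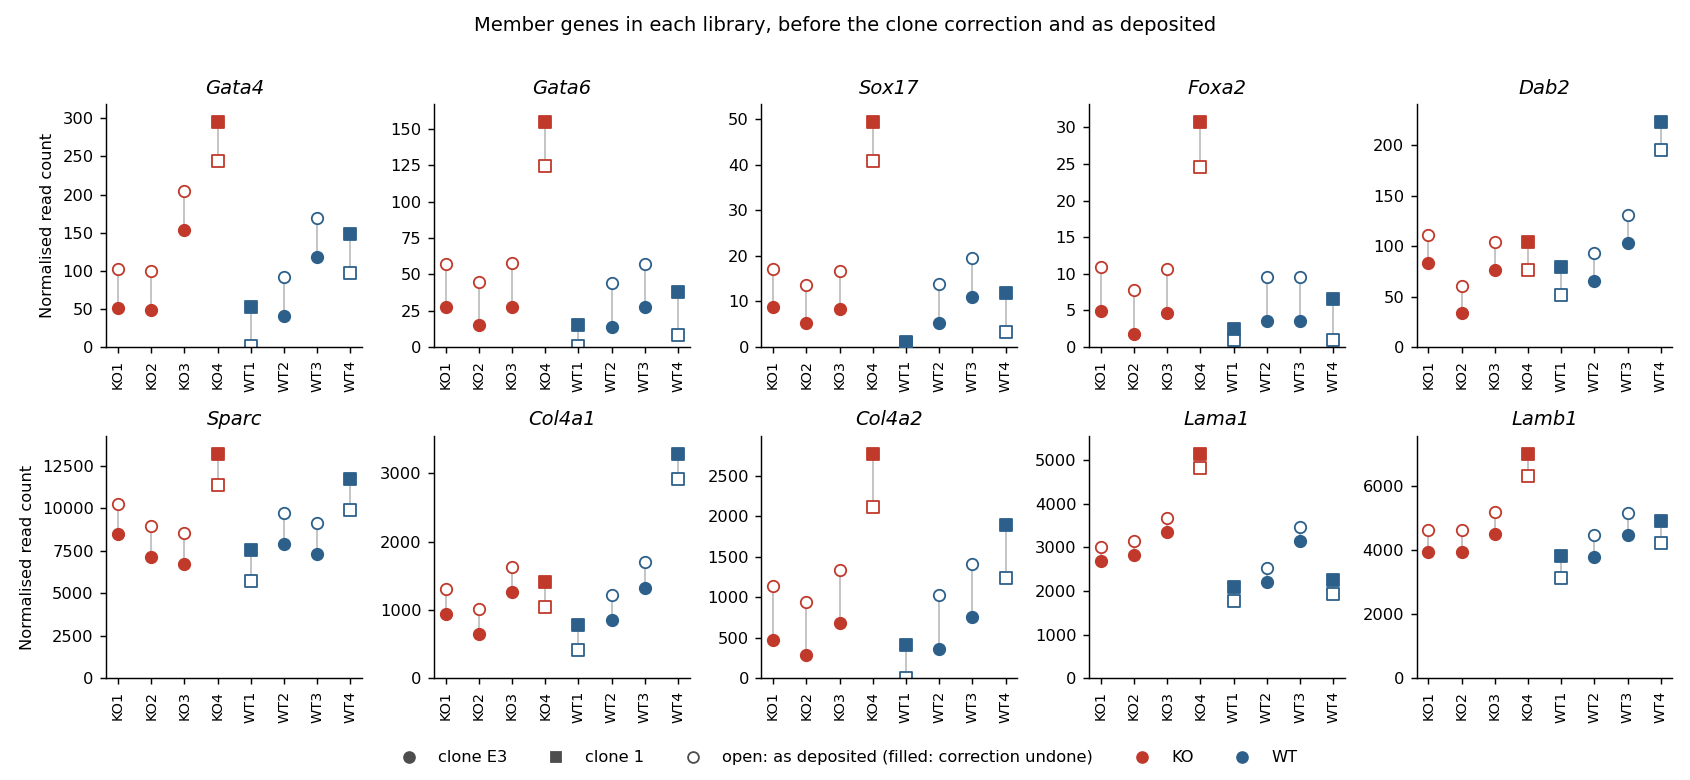
Normalised read count (vertical axis, linear, from 0) of each member in the 4 KO and 4 WT libraries, squares for clone 1 and circles for clone E3. Filled symbols show values with the clone correction undone and open symbols the deposited values. KO replicate 4 is the highest filled symbol for 8 of the 10 genes and WT replicate 4 for Dab2 and Col4a1.

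Dab2 (chr15:6299788-6440712), which sorts receptors into clathrin-coated pits in endoderm, did not follow the transcription factors. It stood at 83.8, 33.3, 76.7 and 104 normalised counts in KO and at 79.6, 65.2, 103 and 223 in WT, so its highest library was WT replicate 4. The deposited log2 fold change was -0.34 ± 0.43 (SE, unadjusted p = 0.458, adjusted p = 0.807). In the pairs of libraries that share a day, Dab2 was lower in KO on each of days 3, 4 and 5, at 0.511, 0.744 and 0.467 of its WT partner. With the day as a block over these 6 libraries the log2 fold change became -0.75 ± 0.23 (SE, unadjusted p = 0.0288, adjusted p = 0.238) on the deposited values and -0.82 ± 0.17 (unadjusted p = 0.00806, adjusted p = 0.201) with the correction undone. With the correction undone Gata4 was below an unadjusted 0.05 in that fit as well, at 0.53 ± 0.18 (unadjusted p = 0.0436, adjusted p = 0.263), with KO over WT at 1.19, 1.29 and 1.99 on days 3, 4 and 5. The blocked fits called 19.2% and 18.5% of all transcripts at an unadjusted p under 0.05, against which 1 and 2 of 10 members is no excess.

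Sparc (chr11:55394500-55423183) stood at 8477, 7160, 6732 and 13208 normalised counts in KO and at 7545, 7935, 7347 and 11742 in WT. Its 6 libraries of days 1 to 4 were close together, with a coefficient of variation of 8.11%, and both day 5 libraries lay above them. The deposited log2 fold change was 0.19 ± 0.22 (SE, unadjusted p = 0.410).

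Both type IV collagen genes were highest in a library of day 5, but not in the same one. Col4a1 stood at 945, 643, 1262 and 1410 normalised counts in KO and at 789, 858, 1328 and 3283 in WT. Col4a2 stood at 476, 288, 684 and 2772 in KO and at 408, 370, 757 and 1899 in WT. WT replicate 4 was thus far above all others for Col4a1, and KO replicate 4 the highest for Col4a2. The deposited log2 fold changes were -0.13 ± 0.57 (SE, unadjusted p = 0.822) for Col4a1 and 1.87 ± 2.05 (unadjusted p = 0.391) for Col4a2. The Col4a2 value depends on either of 2 libraries. The deposited Col4a2 value of WT replicate 1 was the floor of 1, although 487 reads were recovered there, and without WT replicate 1 the log2 fold change was 0.16 ± 0.24 (unadjusted p = 0.535). Without KO replicate 4 it was -0.095, and with the correction undone 0.45 ± 0.63 (unadjusted p = 0.501).

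Lama1 (chr17:67697259-67822647) and Lamb1 (chr12:31265234-31329644) encode chains of laminin-111, the first laminin of the embryo. Lama1 stood at 2685, 2815, 3358 and 5141 normalised counts in KO and at 2098, 2216, 3152 and 2245 in WT. In Lama1, KO replicate 4 was the highest library while WT replicate 4 lay among the others, and 3 of the 4 WT libraries were below all KO libraries. It had the smallest p of the members, with a log2 fold change of 0.58 ± 0.26 (SE, unadjusted p = 0.0632, adjusted p = 0.565). Its call changed with the fit: its unadjusted p was 0.0339 with no clone term, 0.0418 in voom on the recovered reads and 0.0141 without WT replicate 3, but 0.517 without KO replicate 4. Lamb1 stood at 3948, 3936, 4502 and 6997 in KO and at 3822, 3796, 4463 and 4896 in WT, with a log2 fold change of 0.28 ± 0.20 (SE, unadjusted p = 0.189). Within clone E3 the KO and WT values of Lamb1 on the same day were nearly equal, at 1.04 on day 3 and 1.01 on day 4 as KO over WT.

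Across the 10 members, KO and WT did not separate. None of the 10 had an unadjusted limma p under 0.05 on the deposited values, where 1232 of 13558 transcripts (9.09%) did. The study's criterion, an unadjusted p under 0.05 with a change of at least 1.5-fold, was met by 0 members and by 4.25% of all transcripts (576, or 1015 with the day block), and after adjustment over all transcripts by the Benjamini-Hochberg method 0 members and 0 transcripts (0.0%) passed 0.05. In 10.1% of transcripts the KO and WT values did not overlap, and no member was among them. On values before correction the counts were 0 of 10 members and 9.14% of transcripts at an unadjusted p under 0.05, and 0 members and 6.89% of transcripts without overlap. On those values 6 of 13486 transcripts passed an adjusted 0.05, or 8 when WT replicate 4 was also left out, and no member was among them. When the 70 possible assignments were enumerated (exact permutation test, two-sided, smallest possible p 0.0286), the members' deposited values gave p from 0.0857 (Gata6 and Lama1) to 0.971 (Col4a1). The median log2 fold change of the members was 0.95, with 8 of 10 positive, against 0.00 over all transcripts, and it fell to 0.50 with the correction undone and to -0.02 without KO replicate 4. The authors had dropped transcripts whose highest group mean was under 10. Foxa2 (deposited means 13.5 in KO and 5.29 in WT) and Sox17 (22.1 and 9.40) were kept through their KO mean alone. Their positive sign was therefore favoured by that filter. Without KO replicate 4, clone 1 keeps no KO library, so such a fit estimates the genotype effect from clone E3 alone.

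Within clone E3 no member differed between the genotypes beyond the spread of the libraries. On values before correction, with 3 KO against 2 WT libraries, the members' log2 fold changes ran from -0.45 (Dab2) to 0.18 (Gata6), their smallest limma p was 0.390, and 2.97% of all transcripts passed an unadjusted 0.05. The 95% intervals are wide for the low genes: -0.98 to 0.96 for Foxa2, -0.86 to 1.22 for Gata6 and -1.01 to 0.87 for Sox17. For Lamb1 the interval was -0.46 to 0.47 and for Sparc -0.52 to 0.44. Differences inside these bounds are not excluded by these 5 libraries.

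**Figure D2:**
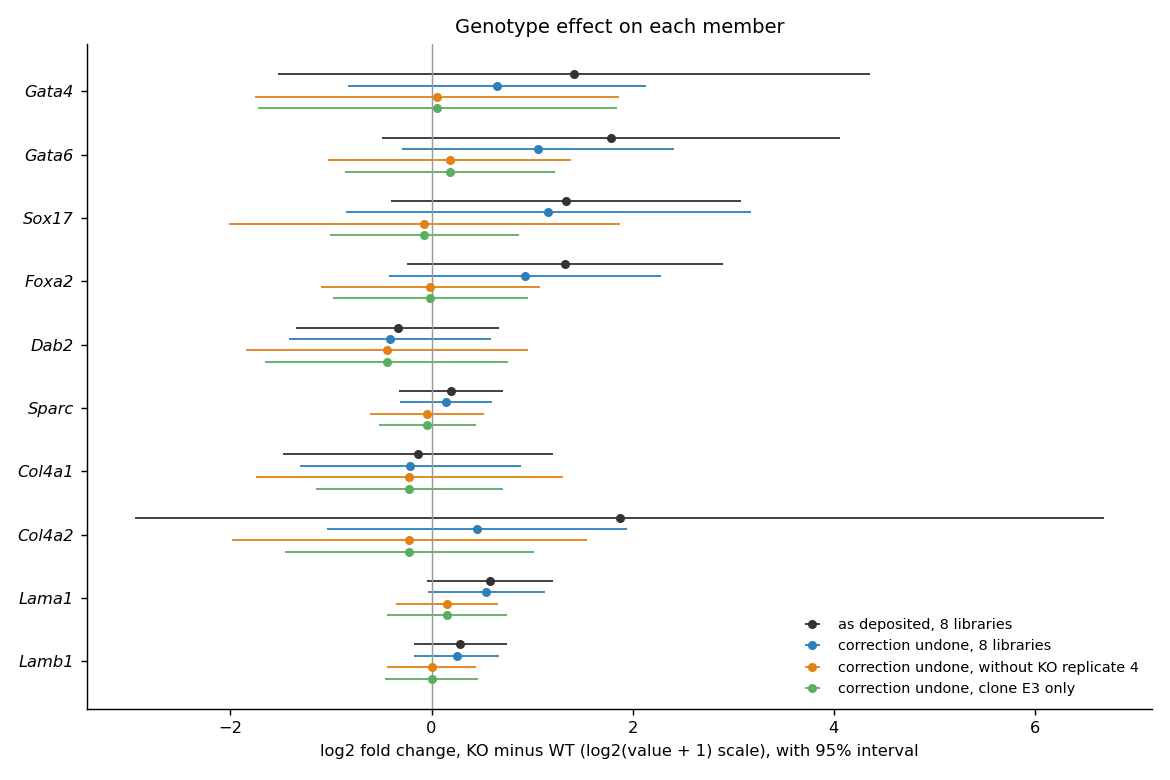
Log2 fold change of each member, KO minus WT (horizontal axis, log2(value + 1) scale), with 95% limma intervals in 4 fits. Every interval crosses 0, and the estimates for Gata4, Gata6, Sox17, Foxa2 and Col4a2 lie above 0 with all 8 libraries and between -0.22 and 0.18 without KO replicate 4 or in clone E3 alone. Without KO replicate 4, clone 1 holds no KO library, so both of these fits compare the genotypes in clone E3 and share their estimates.

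The genotype effect was therefore compared between the clones, with the limit that clone 1 has 1 KO library, so that its spread is taken from the others. On the deposited values 5 of the 10 members had an unadjusted limma p under 0.05 for the difference, where 2.59% of transcripts did. They were Foxa2, Gata6, Sox17, Lama1 and Lamb1, in each case with the larger KO value in clone 1. Of these, Foxa2 and Sox17 were kept by the authors' filter through their KO mean alone, which favours a high KO value. Foxa2 also passed after adjustment (log2 difference 3.66 ± 0.31 SE, limma adjusted p = 0.0355), as did 0.0885% of transcripts. Both WT values of Foxa2 in clone 1 are listed at the floor of 1.00 in that fit. Once the correction and with it the floor were undone, the difference for Foxa2 was 2.63 ± 0.75 (SE, unadjusted p = 0.0122, adjusted p = 1.00). Gata6 (2.46 ± 0.83, unadjusted p = 0.0249), Sox17 (3.45 ± 1.34, unadjusted p = 0.0410) and Lama1 (1.09 ± 0.35, unadjusted p = 0.020) were also below 0.05 unadjusted, 4 of 10 members against 1.78% of transcripts, and none passed after adjustment. All 4 differences rest on KO replicate 4, without which they cannot be estimated.

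The libraries of day 5 stood apart for the members as a group, an observation made after the values were seen. On values before correction, the highest of the 8 libraries was a day 5 library for 10 of 10 members, and for 22.0% of 13486 transcripts. It was KO replicate 4 for 8 members, against 11.6% of transcripts, and WT replicate 4 for Dab2 and Col4a1. Those 8 include Foxa2 and Sox17, whose place in the table was favoured by a high KO value. KO replicate 4 lay above the median of the 6 libraries of days 1 to 4 by 8.68 times for Foxa2, 7.30 for Gata6, 7.25 for Sox17, 5.70 for Gata4 and 6.27 for Col4a2. It lay between 1.33 and 1.87 times that median for Dab2, Col4a1, Sparc, Lamb1 and Lama1. WT replicate 4 lay above it by 4.29 times for Col4a2, 3.64 for Col4a1, 2.86 for Gata4 and 2.85 for Dab2, and at 0.816 times for Lama1. So the transcription factors and laminins were highest in the KO library of day 5, and Col4a1 and Dab2 in the WT library. Clone and day cannot be told apart on day 5, both libraries of which are from clone 1. WT replicate 1, of the same clone but day 1, did not share the rise: with the correction undone it lay at 1.02 times the median of the 6 for Gata4 and 0.923 times for Col4a2.

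**Figure D3:**
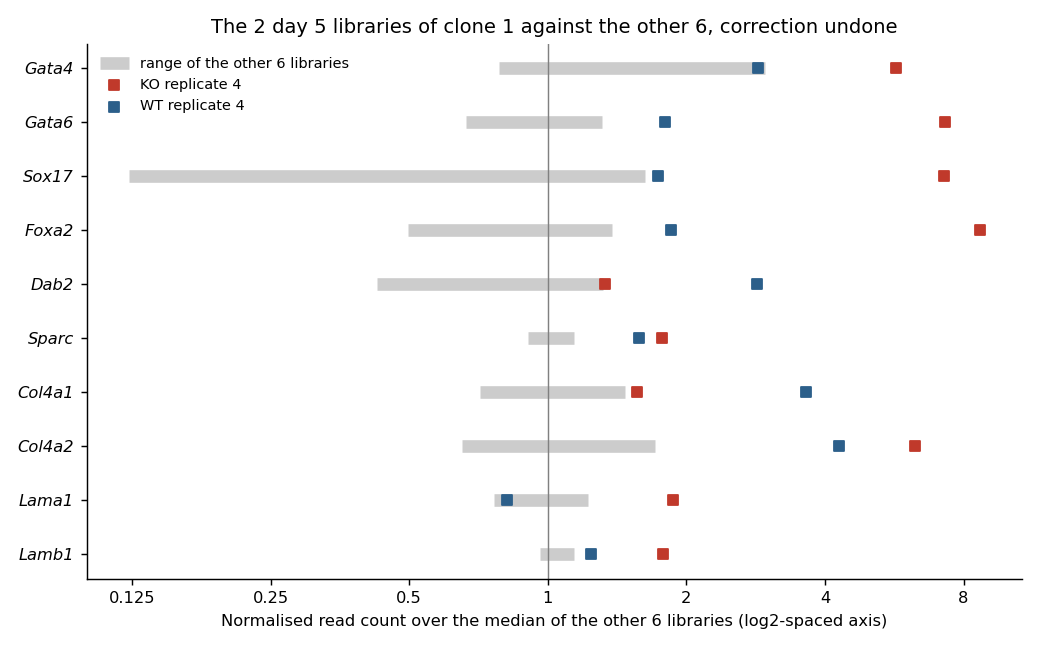
Normalised read count of KO replicate 4 and WT replicate 4 over the median of the 6 libraries of days 1 to 4 (horizontal axis, log2-spaced), correction undone; grey bars span those 6 libraries. KO replicate 4 lies at 5.70 to 8.68 times for the transcription factors, and WT replicate 4 is the further library for Dab2 and Col4a1.

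The correction had a marked effect on how these genes appear in the table. It took the same number of normalised counts from each clone 1 library as it added to each clone E3 library, which was 51.1 for Gata4, 29.8 for Gata6, 659 for Col4a2 and 1800 for Sparc. WT replicate 1 is the lowest or joint lowest deposited value for 10 of 10 members and in 12.8% of all transcripts, but for 2 of 10 members and in 11.0% of transcripts with the correction undone. The floor of 1 was reached in 5 deposited values of 4 members, namely Foxa2 in WT replicates 1 and 4, and Gata6, Sox17 and Col4a2 in WT replicate 1. Recovered reads at these places were 3, 5, 18, 1 and 487. In clone E3, by contrast, the listed Foxa2 values of 7.81 to 10.9 stand over 1.75 to 4.87 normalised counts. For Col4a2 and Gata6 a listed value of 1 is therefore no sign of absent mRNA. For Sox17 and Foxa2 the reads behind the floor values were too few to say.

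The balance of the collagen IV chains differed in a single library. Col4a2 over Col4a1, as recovered reads in the same library, was 0.504, 0.447 and 0.542 in KO replicates 1 to 3. WT replicates 1 to 4 had 0.518, 0.431, 0.570 and 0.578. In KO replicate 4 it was 1.97, from 2079 reads of Col4a2 and 1057 of Col4a1, with a 95% interval from counting error of 1.83 to 2.12. The 7 other libraries lay between 0.431 and 0.578, with a coefficient of variation of 11.1%, including WT replicate 4, where both genes were high. For comparison, Lamb1 over Lama1 was 1.36 in KO replicate 4 and 1.34 to 2.18 in the others, and Lamb1 over the gamma chain gene Lamc1 was 0.699 and 0.523 to 0.710. The collagen genes share the start region printed above, and their reads in KO replicate 4 parted by a factor that no other library showed. In the deposited table the ratio is 2.03 in KO replicate 4, 0.00238 in WT replicate 1 and 0.425 to 0.937 elsewhere.

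**Figure D4:**
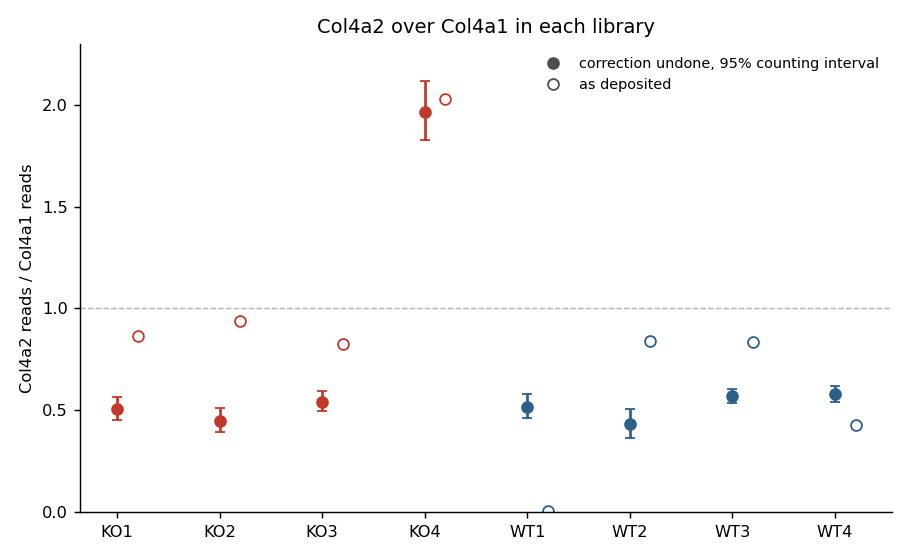
Col4a2 reads over Col4a1 reads (vertical axis, linear) in each library, filled with the correction undone and 95% counting intervals, open as deposited. KO replicate 4 lies at 1.97, and the 7 other filled points lie between 0.431 and 0.578.

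Genes of the same pathway were described from 6 further lists, 97 genes in all that were present in the table. Of these, 7 (7.22%) had an unadjusted limma p under 0.05, with 4 higher and 3 lower in KO, so the lists as a whole did not exceed the 9.09% of all transcripts. With the day as a block over 6 libraries 22 of the 97 had an unadjusted p under 0.05, where 19.2% of all transcripts did. None passed after adjustment. Among 12 primitive endoderm genes beyond the members, Foxa3, a forkhead relative of Foxa2, was higher in KO with deposited values of 24.0 ± 1.36 against 19.7 ± 1.06 (mean ± SD, n = 4 each, unadjusted p = 0.0362). Its groups did not overlap, but the change was 0.27 in log2 on 10 to 40 reads per library, and it did not pass in voom on the recovered reads (unadjusted p = 0.247), with a pseudocount of 10 (unadjusted p = 0.0968) or without any one of KO replicates 1 and 2 and WT replicates 2, 3 and 4 (unadjusted p = 0.0666 to 0.0991). The most abundant genes of that list were Lrp2, the endocytic receptor that works with Dab2, at 1351 ± 484 in KO and 1427 ± 585 in WT, and Tfpi at 1078 ± 208 and 857 ± 229, and neither passed. The list's median log2 fold change was 0.31, and -0.33 without KO replicate 4.

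Among 12 visceral and parietal endoderm genes, Thbd, which encodes thrombomodulin, was lower in KO at 11.9 ± 4.49 against 23.5 ± 6.21 (unadjusted p = 0.0152, and 0.0557 without WT replicate 2). The abundant members of the list, the apolipoprotein gene Apoe (12032 ± 3339 in KO, 9162 ± 2354 in WT) and the Nodal antagonist Lefty1 (288 ± 246 and 547 ± 388), did not pass. Of 22 other basement membrane genes, Smoc1, a secreted calcium-binding matrix protein, was lower in KO at 366 ± 41.0 against 499 ± 66.8 (unadjusted p = 0.0204), and its groups did not overlap. It did not pass without KO replicate 4 (unadjusted p = 0.160), without WT replicate 2 (unadjusted p = 0.0624) or in clone E3 alone (unadjusted p = 0.219). Lamc1, the laminin chain that joins Lama1 and Lamb1, was at 7891 ± 1198 in KO and 7338 ± 867 in WT, and fibronectin, Fn1, at 9416 ± 3943 and 12218 ± 3583. The median of this list was 0.00 in log2.

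Of 20 genes for the folding and secretion of collagen, Loxl3, a lysyl oxidase, was higher in KO at 34.7 ± 8.14 against 18.3 ± 6.07 (unadjusted p = 0.0148). It did not pass without KO replicate 4 (unadjusted p = 0.087), without WT replicate 2 (unadjusted p = 0.0605) or in clone E3 alone (unadjusted p = 0.0746). The abundant P4hb, a subunit of prolyl 4-hydroxylase, and Ppib, a proline isomerase, did not pass (log2 fold changes 0.21 and 0.21). Of 18 receptors for basement membrane, Bcam, a receptor for the laminin alpha 5 chain, was higher in KO at 3080 ± 381 against 1921 ± 161, a log2 fold change of 0.67 ± 0.14 (SE, unadjusted p = 0.00203, adjusted p = 0.416). All KO libraries exceeded all WT libraries for Bcam, and its unadjusted p was 0.0194 without KO replicate 4. The abundant receptors Dag1 and Itga6 had log2 fold changes of -0.06 and 0.04.

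The FGF inputs that favour primitive endoderm contained the smallest p of all 6 lists. Fgfr2, the FGF receptor that is typical of primitive endoderm cells in the blastocyst, had deposited values of 275, 244, 271 and 237 in KO replicates 1 to 4, while those of WT replicates 1 to 4 were 421, 424, 355 and 399. The groups did not overlap, and the log2 fold change was -0.64 ± 0.12 (SE, unadjusted p = 0.000982, adjusted p = 0.367). It stayed below 0.05 without KO replicate 4 (unadjusted p = 0.0115). Spry4, an ERK-induced feedback inhibitor, was higher in KO at 1585 ± 284 against 971 ± 289 (unadjusted p = 0.0221), but had an unadjusted p = 0.169 without KO replicate 4 and an unadjusted p = 0.0737 without WT replicate 3. The ligand Fgf4, among the most abundant of the 13 genes, had a log2 fold change of 0.19 and did not pass.

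**Figure D5:**
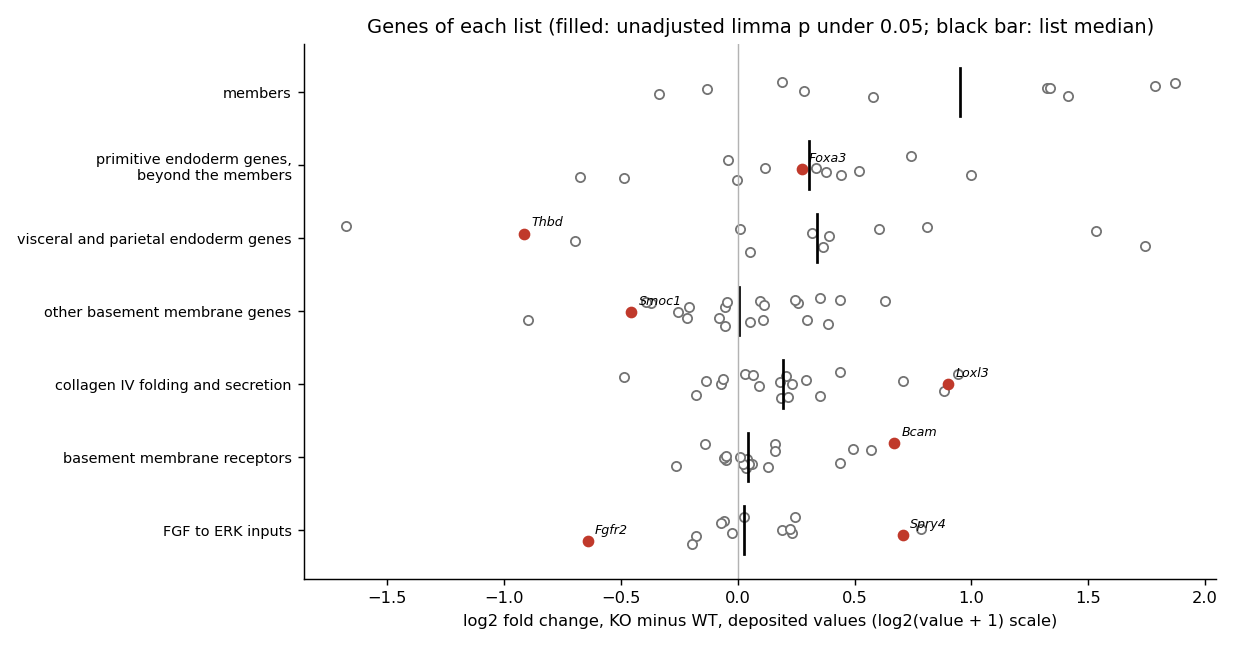
Log2 fold change, KO minus WT, deposited values (horizontal axis), of every gene present in the members' list and 6 pathway lists; filled points have an unadjusted limma p under 0.05 and black bars are list medians. Of the 97 genes outside the members, 7 are filled, and 0 of the 10 members are.

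Day 5 was also the high day for many of these 97 genes. Before correction, 42 of them (43.3%) were highest in a day 5 library, against the 22.0% of all transcripts. By list these were 9 of 12 primitive endoderm genes, 6 of 12 visceral and parietal endoderm genes, 7 of 22 basement membrane genes, 6 of 20 genes for collagen folding, 10 of 18 receptors and 4 of 13 FGF inputs. The collagen chaperone gene Serpinh1 had 3930 normalised counts in KO replicate 4, 2653 in WT replicate 4 and 1137 to 1815 in the 6 others. Col4a5, another collagen IV chain, followed Col4a1 in being highest in WT replicate 4, at 105 normalised counts against 50.7 in KO replicate 4 and 5.28 to 18.5 in the others. Both genes named in this paragraph were picked after their values were seen.

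Summed markers of fibroblasts and trophoblast were also higher in both day 5 libraries than in the 6 others. The endothelial sum was not, although 2 of its 3 genes were highest in a day 5 library. The part of these markers in the members' values was not tested. Summed over 9 fibroblast markers present with recovered reads, the level was 1153 normalised counts in KO replicate 4, 1522 in WT replicate 4 and 265 to 619 in the 6 others. By genotype the sum ran from 265 to 1153 in KO and from 375 to 1522 in WT. The defining fibroblast genes Col3a1, Dcn, Lum, Postn and Twist2 were not among the 13558 transcripts, and Tagln, which smooth muscle and stressed cells of many kinds also express, made up 619 and 1076 of the sums of day 5. Trophoblast markers (6 genes) summed to 1071, 678 and 363 to 583, mesendoderm markers (4 genes) to 161, 105 and 84.5 to 157, and endothelial markers (3 genes) to 333, 491 and 251 to 536, given for KO replicate 4, WT replicate 4 and the 6 others. Tek made up 204 and 354 of the endothelial sums of day 5. In the same order, the other endothelial genes were at 88.0, 70.8 and 4.39 to 23.5 (Flt1) and at 41.3, 66.8 and 9.25 to 48.6 (Kdr). Embryonic stem cell markers (9 genes) summed to 59845 and 58012 on day 5, near the low end of the 6 others at 57665 to 93457, and 0 of 10 such genes passed the test between KO and WT. In these lists Twist1 (69.6 ± 17.1 in KO, 44.8 ± 8.88 in WT, unadjusted p = 0.0383) and Eomes (106 ± 14.6 and 74.8 ± 17.1, unadjusted p = 0.0384) were higher in KO and Tek, an angiopoietin receptor, lower (255 ± 43.3 and 404 ± 69.2, unadjusted p = 0.00867). None of the 3 passed without KO replicate 4 (unadjusted p = 0.283, 0.170 and 0.0671), and Twist1 and Eomes did not pass in voom (unadjusted p = 0.0644 and 0.120), on untransformed values (unadjusted p = 0.0717 and 0.0604) or without some of the other libraries. The most abundant genes of each list, Pou5f1, Dppa5a, Tagln, Col5a1, Cxcr4, Krt7, Ascl2 and Flt1, did not pass, although some of them, such as Cxcr4, were low. All cells had been sorted for SSEA-1, a gate meant to remove differentiated cells. In a bulk library, a change in the share of endoderm cells and a change in mRNA per cell cannot be told apart.

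The transcripts whose log2 deposited values followed Foxa2 most closely over the 8 libraries were Tgfb2 (Pearson r = 0.992), Wisp1 (0.990) and Bmper (0.987), with the members left out. The mean of Col4a1, Col4a2, Lama1 and Lamb1 was followed most closely by Runx1 (0.991), Mael (0.989) and Foxq1 (0.988). These are descriptions over 8 libraries that share the floor and the clone correction. Before correction those close were Krt7 (0.974), Zfp169 (0.974) and P4ha2 (0.949) for Foxa2 and Foxq1 (0.985) and Abcb1b (0.973) for the collagens and laminins, so that Foxq1 stood in both lists and the partners of Foxa2 did not. Without KO replicate 4 the r of Krt7 with Foxa2 was 0.862 over 7 libraries.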

How the data were processed

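Poly(A) mRNA of 8 libraries (4 KO, 4 WT) was sequenced from TruSeq v2 libraries, which keep no strand. Per the labels and methods, the authors used CASAVA 1.8, TopHat2 with Bowtie2 2.2.1, mm10 and RefSeq transcripts, scaled the counts with DESeq2, subtracted a clone effect in Partek 6.6, set values under 1 to 1 and dropped transcripts weak in both groups. The deposited signal is thus a normalised read count after an additive correction. No per-sample column was left unused (0).

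In all 13350 transcripts without a floor value the clone effect of genotype + clone was 0, so each value was taken as a whole read number, scaled by its library's factor and moved by the transcript's shift, and both were solved for. A single solution was found for 13486 transcripts, 72 had several, and in simulated data 13287 of 13296 were unique and all of those right. Between 6700778 and 24911158 reads were recovered per library, and they cover the listed transcripts alone.

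Genotype and clone were fitted to log2(value + 1) with limma 3.58.1 in R 4.3.3 over all 13558 transcripts, adjusted by Benjamini-Hochberg. Adding 1 shrinks the fold changes of low genes, but on the deposited values the estimates lay on either side of the log2 ratio of group means. Gata6 was at 1.79 on this scale and 1.37 by that ratio, and Foxa2 at 1.32 and 1.35. In simulated 4-fold changes at dispersions of 0.02 and 0.1, 198 and 193 of 200 transcripts passed an adjusted 0.05. The simulated reads had no day effect and no outlying library. They do not give the power in these data, where Trim71 had a limma adjusted p of 0.294. Day labels pair 3 KO with 3 WT libraries. Deviations from the group means correlated within days 3, 4 and 5 at 0.518, 0.624 and 0.501 with the correction undone (median -0.17 across days) and at 0.419, 0.540 and -0.228 on the deposited values (median 0.050), and the day block was an alternative. Other alternatives were a pseudocount of 10, a mean of at least 50, transcripts without floor values and no clone term. Untransformed values, equalised medians, the correction undone and leaving out each library were also used. Added after the data were seen were clone E3 alone, voom, and 2 fits with the correction undone. Of these 2 fits, 1 left out KO replicate 4 and 1 left out WT replicate 4. Exon lengths came from GENCODE M21 and promoters from RefSeq (GRCm38.p6). Members and lists were chosen with earlier results of these data known. Named genes were the members, Trim71, from each list those with p under 0.05 (at most 4) and the 2 most abundant, and the 3 transcripts closest to each of 2 patterns, with exceptions stated. Some genes that this rule names are not reported here.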

Additional observations from a re-analysis of the deposited data

Results flagged for a closer look

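A library lay far from the others of its group, past Dixon's 95% critical value for 4 samples, in 8 of 40 checks over the 10 members. The same libraries were checked on both kinds of value, with 2 flags in 20 groups as deposited and 6 in 20 before correction. Chance alone passes this check in about 1 of 20 independent groups of normal values, which these are not. The share over all transcripts is not given, so no excess is read from the count. On the deposited values the flagged library was KO replicate 4 for Gata6 at 125 and for Sox17 at 40.9 normalised counts. Before the clone correction it was KO replicate 4 for Foxa2 at 30.7, Gata6 at 155, Sox17 at 49.3 and Col4a2 at 2772, and WT replicate 4 for Sparc at 11742. Of the flagged values, 7 are from a day 5 library of clone 1, and the eighth is Lama1 in WT replicate 3, at 3152 in a WT group whose other values were 2098 to 2245.

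For Foxa2 the genotype effect on the deposited values was larger in clone 1 than in clone E3 by 3.66 in log2 (limma interaction, adjusted p = 0.0355). Before the correction the difference was 2.63 with an adjusted p = 1.00. It rests on 23 reads in KO replicate 4, and both clone 1 WT values of Foxa2 are listed at the floor.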

How the results depend on the processing

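The absence of calls among the members held in most settings. At an unadjusted limma p under 0.05, 0 of 10 members passed in the reported fit, 1 passed with no clone term, 1 in voom on recovered reads, 1 with the replicate block by day and 2 with that block and the correction undone; leaving out each library in turn gave 0 to 1. Genes of the 6 pathway lists numbered 7 in the reported fit, 4 with a mean of at least 50, 4 in clone E3 alone, 11 with no clone term, 22 with the day block, 26 with the day block and the correction undone, and 4 to 11 with a library left out. The transcripts passing that threshold also varied: 1232 of 13558 in the reported fit, 1898 of 13558 with no clone term and 1280 of 13486 in voom. They were 1027 of 11089 with a mean of at least 50 and 2.97% in clone E3 alone. The blocked fits had 19.2% and, with the correction undone, 18.5%. With a library left out they were 442 to 1444 of 13558. Over all transcripts 576 met the fold change criterion, 382 in the linear model on untransformed values, 315 with a mean of at least 50, 324 in clone E3 alone, 338 without KO replicate 4 and with the correction undone, 1015 and 1021 in the fits with the day block, and 260 (without KO replicate 4) to 835 (without WT replicate 3) with a library left out. The blocked fits use 6 libraries. Trim71 kept its direction in every fit, at -2.70 to -1.81 with a library left out. Members whose genotype effect differed between the clones numbered 5 (2.59% of all transcripts), and 2 when low means (1.26%) or transcripts at the floor (2.13%) were dropped, both of which remove members; with a library left out they numbered 4 to 9, the most without WT replicate 4 (4.77%), and no value could be had without KO replicate 4.

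Log2 fold changes changed sign for 5 members in some settings. Without KO replicate 4, Foxa2 and Sox17 were at -0.011 and -0.070, Sparc at -0.041 and Col4a2 at -0.22 with the correction undone. The fit of clone E3 alone gives the same estimates by design, since without KO replicate 4 clone 1 holds no KO library. Sparc was at -0.0071 and -0.035 in the blocked fits, and Col4a1 at 0.090 without WT replicate 4 and with the correction undone. Over the fits that left out 1 library, Sox17 ran from -0.047 to 1.90, Sparc from -0.032 to 0.29, Col4a1 from -0.55 to 0.27 and Col4a2 from -0.095 to 2.89. Leaving out KO replicate 4 thus turned the sign of Sox17, Sparc and Col4a2, that of Foxa2 only with the correction undone (0.016 on the deposited values), and leaving out WT replicate 4 that of Col4a1, to 0.27 on the deposited values. Depth limits Foxa2 and Sox17, which had 1 to 37 reads per library. The cause of the differences between settings was not tested.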
